A study of Saccharomyces cerevisiae with 56 samples.

Results

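Haploid segregants of a cross of S288C, the laboratory strain of the reference genome, with the wine strain 59A were divided, all 44 of them, by the signal of 1 sodium pump gene, ENA2. A segregant was placed in the high group when its ENA2 value lay above 7.6 on the log2 scale and in the low group when it lay below, which gave 25 high and 19 low segregants among the 56 arrays of the series. The groups were thus chosen by the ENA2 value itself, and no marker genotype was used. Each segregant was measured once, on 1 one-colour array. S288C and 59A each had 2 RNA extracts with 3 technical arrays, averaged per extract. 59A was derived as a haploid from EC1118, a commercial wine yeast. All cultures fermented the same synthetic must (pH 3.3, assimilable nitrogen 425 mg/L, with p-aminobenzoic acid and iron(III) chloride added). Stationary cells were harvested once 66 g/L of CO2 had been released, at 70% of the fermentation. No sodium challenge was applied to any group.

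The ENA genes of Saccharomyces cerevisiae encode P-type ATPases of the plasma membrane that export sodium and lithium and, at high pH, potassium. Copies of nearly the same sequence lie in tandem on the right arm of chromosome 4, and the number and kind of copies differ between strains. ENA1 is the copy that responds most to salt, alkaline pH and glucose limitation. Its promoter is activated through calcineurin and Crz1 and through the kinase Snf1. It is repressed by Nrg1, Mig1 and Sko1. In the reference gene order of S288C, ENA5 (YDR038C), ENA2 (YDR039C) and ENA1 (YDR040C) are next to each other. Because their sequences are so close, a probe named for one copy can read RNA of another. The 3 pump genes were therefore left out of all tests, and their values are given as a description of the groups.

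ENA2 parted the segregants with a wide empty range. High segregants lay at 9.24 at the lowest, 9.89 at the median and 10.34 at the highest, and low segregants at 5.25, 5.34 and 5.43. Nearest to the limit were 9a at 9.24 and 1b at 9.47 in the high group, and 9c at 5.43 and 14b at 5.41 in the low group, which leaves 3.80 log2 units between the groups. All 19 low segregants lay below 6.3, a limit set 1 log2 unit above the level of 5.3 that the authors give as background. The high segregants had the S288C pattern and the low ones that of 59A. S288C arrays read 9.57 to 9.65, and 59A arrays at most 5.36. Mean ENA2 was 9.85 ± 0.29 in high segregants (SD, n = 25), against 5.34 ± 0.05 in low segregants (SD, n = 19). Counted from the background limit, the difference was at least 11.7-fold. Signal at background can come from a gene that is absent, silent or too different from the probe, which cannot be told apart here.

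ENA1 was split in the same way. It was not used to form the groups, but its probe can read RNA of ENA2, so it is no separate support for the split. High segregants lay at 8.90, 9.58 and 10.09 (lowest, median and highest), and low segregants at 5.44, 5.84 and 7.57. The groups did not overlap, and the lowest high segregant was 1.33 above the highest low one, 25a. For how many other probes the groups also did not overlap was not counted. 14 of the 19 low segregants were below 6.3. The means were 9.55 ± 0.31 in high segregants and 6.03 ± 0.54 in low segregants, a difference of at least 9.51-fold counted from that limit. The extract means were 9.25 and 9.50 in S288C, and 6.51 and 5.78 in 59A, on either side of the background limit. The higher 59A extract rested on 1 technical array of extract 1, which read 7.37 where the other arrays of 59A lay between 5.76 and 6.16.

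ENA5 differed less between the groups. High segregants lay at 7.82, 8.34 and 8.97, and low segregants at 5.70, 6.28 and 8.19. Here the groups overlapped by 0.36, and 25a was the low segregant that reached into the high range. The means were 8.36 ± 0.26 and 6.48 ± 0.66, a difference of 1.88 on the log2 scale or 3.68-fold, beside 1.56 for S288C over 59A. On each of the 7 slides the mean of ENA5 was higher in high segregants, by 1.27 to 2.47 as measured, though 10 of the 19 low values lay below 6.3.

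**Figure D1:**
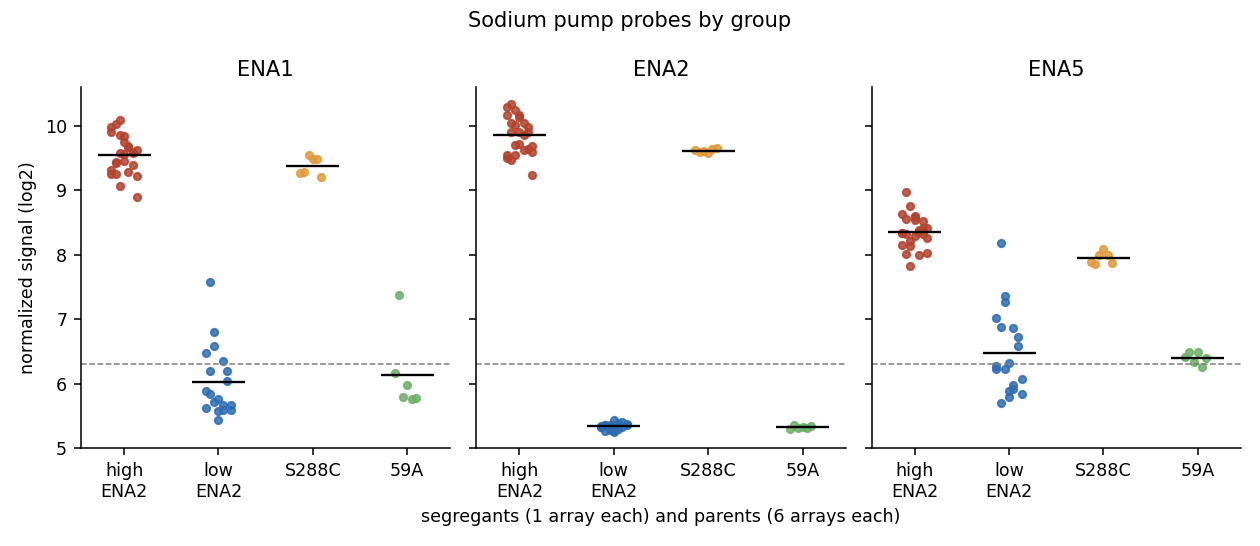
Normalized log2 signal of the ENA1, ENA2 and ENA5 probes in high ENA2 segregants (n = 25), low ENA2 segregants (n = 19), S288C (6 arrays) and 59A (6 arrays). Points are single arrays, black lines are means of the points, and the dashed line is the background limit of 6.3. ENA2 and ENA1 leave an empty range between the segregant groups, whereas ENA5 of segregant 25a, at 8.19, lies among the high segregants.

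The pump signals also varied within each group. In the low group ENA1 and ENA5 moved together over 19 segregants (r = 0.96, Spearman rho = 0.89), and r was 0.94 without 25a. Of these 19, 14 lay below 6.3 in ENA1 and 10 in ENA5, so much of this pattern is signal at background. The mean of ENA1, at 6.03, was itself below the limit asked of the genes it is compared with. ENA5 was the gene whose pattern was most like that of ENA1 among 4370 named genes with a mean above background and values in every low segregant. The next was YHR033W, with r = 0.74. ENA2 lay at background in all 19 by the choice of the group, so no relation to it could be seen there. The low segregants after 25a were 6d, with 6.79 for ENA1 and 7.36 for ENA5, and 28b, with 6.59 and 7.27. In 8 of the 19 low segregants ENA5 was above every 59A array, and in 9 it was below every one of them.

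In the high group the close pair was ENA1 and ENA2 (r = 0.91, rho = 0.89, n = 25). Each was the gene most like the other among 4223 named genes. ENA5 followed less closely, with r = 0.63 against ENA1 and 0.64 against ENA2, and in likeness to ENA2 it ranked 32. In ENA5, 21 of the 25 lay above every array of S288C, which are technical arrays of only 2 extracts. These correlations are over segregants of one cross and share array and normalization, so they are given as a description only. Probes that read more than 1 copy would also vary together, and the part of such shared reading was not tested.

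**Figure D2:**
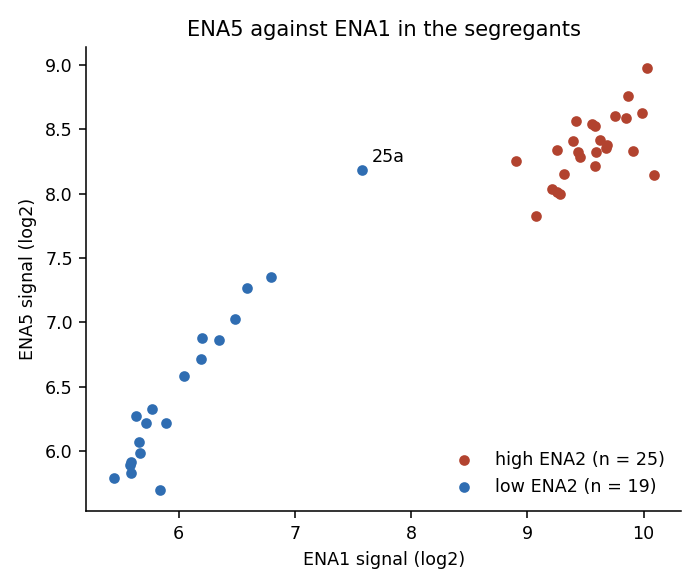
ENA5 against ENA1 (normalized log2 signal, 1 point per segregant) for high ENA2 segregants (n = 25) and low ENA2 segregants (n = 19). The low segregants lie along 1 line that ends at 25a (7.57 and 8.19), with r = 0.96, and the high segregants form a looser cloud with r = 0.63. Of the 19 low segregants, 14 lie below the background limit of 6.3 in ENA1 and 10 in ENA5.

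The groups were not even in all other respects. Slide 1 held 5 high and 1 low segregants, slide 6 held 2 and 5, and the other slides lay between these. The names of the segregants hold 26 numbers, as many as the asci that the study describes, though the labels do not say that a number marks an ascus. For 16 and 22, the numbers shared by 4 segregants, it gave 2 high and 2 low each. Genes of a-type mating were lower and genes of alpha-type mating higher in the high group, as means. BAR1, the protease of a cells that degrades alpha-factor, was at 6.08 or less or at 6.71 or more in every segregant. It was above 6.3 in 7 of 25 high and 13 of 19 low segregants. Among other genes with separate ranges, the median of ASP3-1, an asparaginase II copy, was 5.92 in high and 14.91 in low segregants (24 and 17 with a value). Its means differed by -1.62 ± 1.53 (log2, SE; unadjusted p = 0.294), and those of the copies ASP3-2, ASP3-3 and ASP3-4 by -1.19 to -1.20. Where ranges are separate, a small surplus can move the median from one to the other. For COS6, of a subtelomeric family, the medians were 5.44 and 11.18 and the difference of means -0.45 ± 0.97 (p = 0.649). TPO2, a polyamine exporter, had medians of 13.13 and 10.52 and a difference of 0.65 ± 0.62 (p = 0.298). PCS60, a peroxisomal enzyme, had medians of 8.62 and 10.50 and a difference of -0.40 ± 0.42 (p = 0.344), and AYT1, an acetyltransferase, medians of 7.72 and 5.69 and a difference of 0.23 ± 0.42 (p = 0.581). These p-values are unadjusted ones of limma. The part of these other loci in the results was not tested. COS7, at the left tip of chromosome 4, had medians of 5.44 in high and 5.43 in low segregants, both below the background limit (p = 0.905). The median of the distal left arm of chromosome 16, of which some segregants carry an added copy, was 8.46 in high and 8.43 in low segregants. The highest values were 9.30 and 9.26. A minority with the added copy would hardly move the median of a group, and their number in each group was not counted. The medians of all probes of an array lay between 8.24 and 8.28 in both groups.

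The question put to the rest of the array was which other transcripts differ between segregants with the S288C and the 59A pattern at ENA2, on chromosome 4 and elsewhere. None was called at an adjusted p under 0.01 by limma. The count was 0 of 6224 probes (0%), with 281 (4.51%) at an unadjusted p under 0.05, 140 of them higher and 141 lower in the high group. At an adjusted p under 0.05 limma called 2 of the 6224 probes (0.0321%), and both lie on chromosome 4. They are DBF4 and PDC2. Of 666 tested genes of chromosome 4, 45 (6.76%) had an unadjusted p under 0.05, against 200 of 4513 named genes elsewhere (4.43%). Genes on a chromosome are inherited together and are not independent, so no test was made of these shares. The median size of the difference was 0.077 for chromosome 4 and 0.074 elsewhere (log2).

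The measurements bound most differences closely. The 95% interval of the difference lay within 1 log2 unit of 0 for 6086 of the 6224 probes (97.8%), and for 654 of the 666 genes of chromosome 4 (98.2%). It lay within 0.5 for 81.8% of all probes. In simulated data of the same size and spread with 200 changed probes, the same test called 92 of 100 probes changed by 1 log2 unit and 56 of 100 changed by 0.5. The adjustment of p is stricter when fewer probes change. These shares hold for 200 changed probes and can overstate what would be called when few transcripts differ. A small difference can therefore have been missed, above all in transcripts that vary widely among segregants.

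DBF4 (YDR052C) encodes the regulatory subunit of the kinase Cdc7, which starts DNA replication, and lies 12 protein-coding genes to the right of ENA2. High segregants had 6.52 at the lowest, 7.10 at the median and 7.83 at the highest, and low segregants 7.03, 7.55 and 8.03. The ranges overlapped widely, yet 22 of 25 high segregants were below the median of the low group. The means were 7.15 ± 0.30 in high and 7.58 ± 0.23 in low segregants (SD), a difference of -0.43 ± 0.08 (SE; 95% interval -0.60 to -0.26; limma adjusted p = 0.0222). The parents had the opposite order, with 7.64 in S288C and 7.31 in 59A. 7c at 7.83 was the highest of the high group, and 5a at 7.03 the lowest of the low group.

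PDC2 (YDR081C), 41 genes to the right of ENA2, encodes an activator of the pyruvate decarboxylase genes PDC1 and PDC5 and of thiamine synthesis. High segregants had 7.91, 8.63 and 9.31, and low segregants 7.56, 8.07 and 8.96. 24 of 25 high segregants were above the median of the low group, and 18 of 19 low segregants were below that of the high group. The exceptions were 2a in the high group, at 7.91, and 5a in the low group, at 8.96. The means were 8.59 ± 0.32 and 8.11 ± 0.32 (SD), a difference of 0.49 ± 0.10 (SE; 95% interval 0.29 to 0.68; limma adjusted p = 0.0222). S288C was at 8.60 and 59A at 8.21, close to the means of the high and the low group. PDC1, the main pyruvate decarboxylase, was at 15.27 ± 0.35 in high and 15.26 ± 0.34 in low segregants, and PDC5 at 12.59 ± 1.26 and 12.29 ± 1.57, neither past an unadjusted p under 0.05. PDC1 lay near the spot saturation level that the authors give, where a difference can be compressed. THI7, the thiamine transporter, was at 12.31 ± 0.99 and 11.90 ± 0.96 (unadjusted p = 0.168).

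Both calls depended on single choices. With slide as a block the adjusted p was 0.160 for DBF4 and 0.238 for PDC2, and without 9c and 13b, the arrays with most missing values, it was 0.0641 for both. Within name numbers, over the 10 that hold both groups (13 high and 12 low segregants), the differences were -0.41 and 0.49 and the adjusted p 0.876 for both. Within slides DBF4 was lower in high segregants on all 7, by a log2 difference of -0.06 to -0.86, and PDC2 was higher on 6 of 7. The exception was slide 1, at -0.56, where 5a was the single low segregant. BAR1 moved with the groups, and with BAR1 above 6.3 as a covariate the differences were -0.42 for DBF4 (adjusted p = 0.119) and 0.53 for PDC2 (adjusted p = 0.0532). Among the segregants with BAR1 above 6.3 the difference was -0.38 for DBF4 and 0.44 for PDC2 (7 high, 13 low), and among the others -0.47 and 0.62 (18 high, 6 low). These 2 genes were picked out with their values in view.

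**Figure D3:**
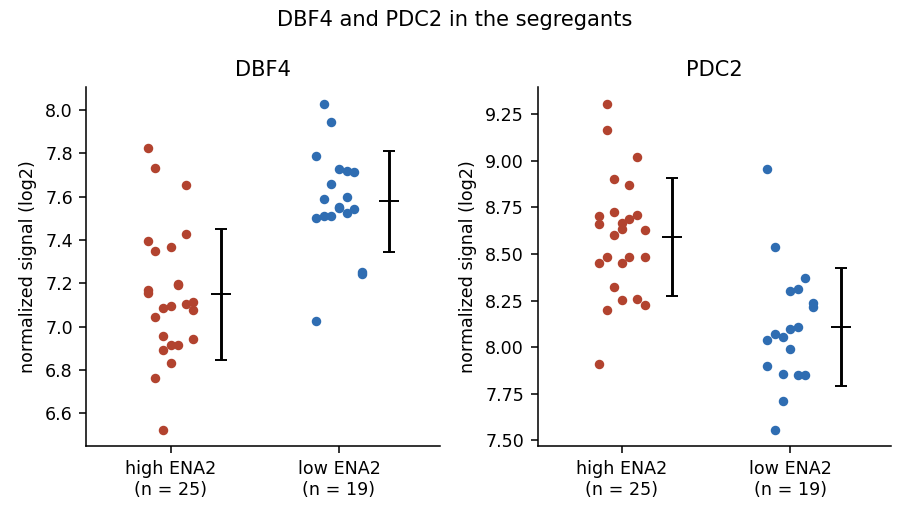
Normalized log2 signal of DBF4 and PDC2 in high ENA2 segregants (n = 25) and low ENA2 segregants (n = 19), 1 point per segregant, with the mean and SD beside each group. Vertical axes do not start at 0. The groups differ in their means, by -0.43 for DBF4 and 0.49 for PDC2, and overlap in their ranges.

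On chromosome 4 no tested gene came near the differences of the pump cluster. Among the 29 tested genes within 20 places of ENA2, 3 (10.3%) had an unadjusted p under 0.05, and the median size of the difference was 0.14. From 21 to 40 places it was 7 of 36 genes (19.4%) with a median of 0.10, from 41 to 60 places 3 of 34 (8.82%) with 0.052, and from 61 to 80 places 1 of 34 (2.94%) with 0.046. Further away it was 5 of 38 genes up to 100 places (13.2%) and 26 of 495 beyond (5.25%). Beside these shares stands 4.43% of the named genes elsewhere. The steps up to 100 places hold few such genes, which are inherited together, and a trend with distance was not tested. No tested gene within 20 places differed by more than 0.48. The largest difference on the chromosome was that of MFA1, an a-factor gene 414 places away, at -1.10 ± 0.39 (SE; unadjusted p = 0.00712, adjusted p = 0.999, limma). It is one of the a-type mating genes, which were uneven between the groups.

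**Figure D4:**
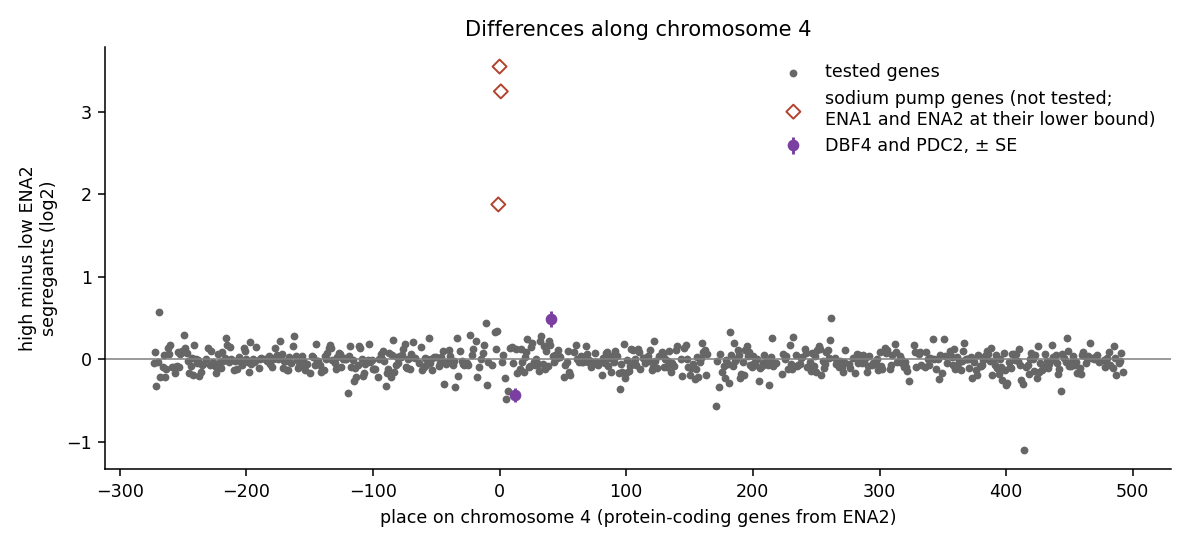
Difference of high minus low ENA2 segregants (log2) for 666 tested genes of chromosome 4, by place in the order of protein-coding genes counted from ENA2, with DBF4 and PDC2 shown with their SE and the 3 pump genes, which were not tested, as open diamonds. ENA2 and ENA1, whose low group lies at background, are drawn at their lower bounds of 3.55 and 3.25 counted from 6.3, ENA5 at 1.88, and every tested gene lies within 1.10 of 0.

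The direct neighbours of the pumps did not differ at the adjusted threshold, including those whose level differed greatly between the parents. 13 of 18 protein-coding genes within 10 places, the pumps aside, were tested. NRG1 (YDR043C), the repressor of ENA1 named above, lies 4 places to the right. High segregants had 9.78, 10.62 and 12.13 (lowest, median and highest), and low segregants 9.41, 10.87 and 12.57, so the ranges covered each other. The difference was -0.23 ± 0.20 (95% interval -0.64 to 0.18; unadjusted p = 0.268), beside 1.27 between the parents, with 11.77 in S288C and 10.50 in 59A.

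HEM13 (YDR044W), the coproporphyrinogen oxidase of heme synthesis that is induced without oxygen, had 9.48, 12.26 and 13.24 in high segregants, against 10.26, 12.31 and 14.59 in low segregants. The medians were nearly equal and the difference was -0.48 ± 0.33 (95% interval -1.15 to 0.19), whereas S288C was at 9.97 and 59A at 12.97. BAP3 (YDR046C), a permease of branched-chain amino acids, had 6.64, 7.69 and 11.15 in high segregants, and 6.76, 7.84 and 11.15 in low segregants. Its difference was -0.39 ± 0.37 (95% interval -1.13 to 0.36), although it was 4.08 higher in S288C, at 11.16, than in 59A, at 7.08. Segregants with high BAP3 were thus present in both ENA2 groups, 7 places from the gene that defines them.

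ARO3 (YDR035W), an enzyme of the first step of aromatic amino acid synthesis, 4 places to the left, had the smallest p of these neighbours. High segregants had 8.33, 8.99 and 10.25 with values on 24 arrays, and low segregants 8.22, 8.72 and 9.38. 21 high segregants were above the median of the low group. The difference was 0.33 ± 0.12 (unadjusted p = 0.00952, adjusted p = 0.999, limma), in the direction of the parents, where S288C exceeded 59A by 0.91. The mean of MRH1, a plasma membrane protein, was 11.10 ± 0.63 in high and 11.41 ± 0.47 in low segregants (unadjusted p = 0.0685). KRS1, the lysyl-tRNA synthetase, was at 10.06 ± 0.81 and 9.71 ± 1.27, and TPI1, the triose phosphate isomerase, at 15.33 ± 0.33 and 15.18 ± 0.44. TPI1 also lay near the saturation level. For the remaining neighbours, the heme gene HEM12, the lysine activator LYS14, the mitochondrial genes EHD3 and RSM10 and the unnamed reading frames YDR034C-A and YDR042C, the differences lay between -0.06 and 0.14. YDR034C-A was below 6.3 in all segregants, and YDR042C in 13 high and 12 low ones, so their differences are those of signal at background.

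**Figure D5:**
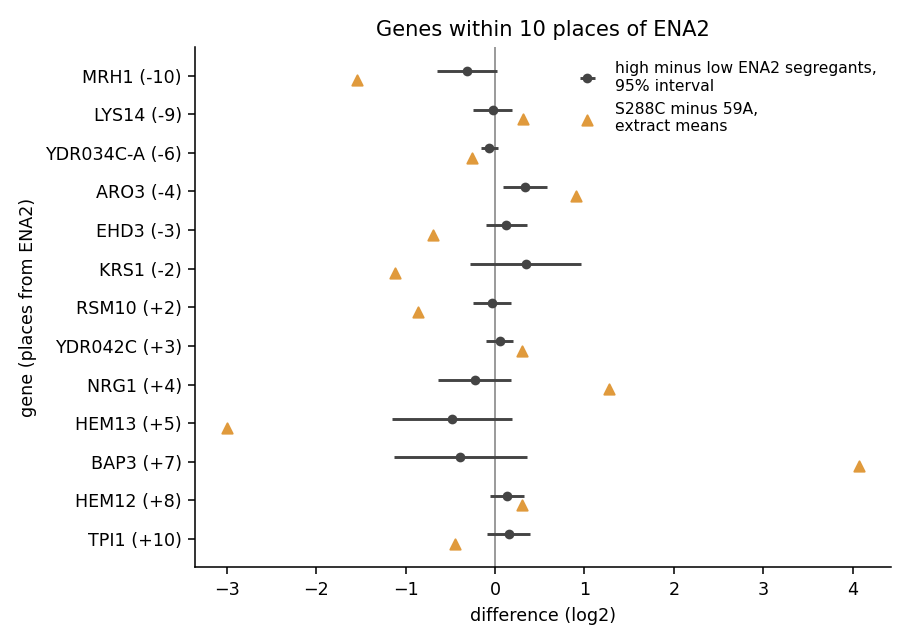
Difference of high minus low ENA2 segregants with its 95% interval (circles) and S288C minus 59A as extract means (triangles), both log2, for the 13 tested genes within 10 places of ENA2, with the place in brackets (minus is to the left). The segregant differences lie between -0.48 and 0.34, while the parental differences reach -3.00 for HEM13 and 4.08 for BAP3.

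The sign of the difference was that of S288C minus 59A in 13 of the 29 genes within 20 places, in 296 of 666 on the whole chromosome (44.4%) and in 1906 of 4513 elsewhere (42.2%). 89 genes of chromosome 4 differed by more than 1 log2 unit between the parents, and for all 89 the 95% interval of the segregant difference left out the parental value, also for the 6 within 20 places. The parental values carry the error of 2 extracts each, which that interval does not include. Most intervals lie within 1 unit of 0 and so leave out any parental value beyond it.

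Genes that transport sodium or regulate the pumps were examined as lists, none of which had a called member. Of 15 tested transporters of sodium, potassium and protons, 0 had an unadjusted p under 0.05 in limma and their median difference was -0.03, beside -0.0016 for all probes. TOK1, the outward potassium channel, was at 9.06 ± 0.37 in high and 9.21 ± 0.34 in low segregants, and VNX1, a vacuolar sodium exchanger, at 8.69 ± 0.31 and 8.55 ± 0.41. Of 13 kinases, phosphatases and partners of ion tolerance, 2 had an unadjusted p under 0.05, against 4.51% of all probes. SIS2, an inhibitor of the phosphatase Ppz1, was at 9.65 ± 0.37 and 9.95 ± 0.47 (unadjusted p = 0.0223), and HAL5, a kinase that stabilises the potassium transporters, at 10.23 ± 0.33 and 10.49 ± 0.45 (unadjusted p = 0.0271). Both had an adjusted p of 0.999.

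No regulator passed the threshold either. In limma 0 of 13 genes of calcineurin and Crz1, 0 of 11 of the Rim101 pathway of alkaline pH, 0 of 14 of glucose repression and 0 of 23 of the HOG pathway of osmotic stress had an unadjusted p under 0.05, with median differences of -0.02, -0.03, -0.03 and -0.02. Only 4.51% of all probes passed that limit, so a count of 0 in lists this short is near that share. CNB1, the regulatory subunit of calcineurin, was at 10.54 ± 0.24 in high and 10.70 ± 0.35 in low segregants (unadjusted p = 0.0751). RCK2, a kinase downstream of Hog1, was at 11.74 ± 0.33 and 11.53 ± 0.41 (unadjusted p = 0.0609). SNF1 was at 9.67 ± 0.26 and 9.77 ± 0.30. Of 19 osmolyte and salt stress targets 0 passed that limit, and TPS2, the trehalose phosphatase, 33 places from ENA2, had a difference of 0.29 ± 0.16 (SE; unadjusted p = 0.0760). The 95% interval lay within 1 log2 unit of 0 for all tested members of the calcineurin, Rim101 and HOG lists and for 13 of the 14 of glucose repression.

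Outside ion transport, 0 of 25 genes of glycolysis and alcohol fermentation and 0 of 22 amino acid permeases had an unadjusted p under 0.05 in limma, and 1 of 18 genes of heme synthesis and hypoxia did. This was HEM14, the protoporphyrinogen oxidase, at 9.75 ± 0.18 in high and 9.56 ± 0.32 in low segregants (unadjusted p = 0.0216). SAM3, a permease of S-adenosylmethionine, was at 9.95 ± 0.97 and 9.50 ± 0.77. The 23 thiamine genes had a median difference of 0.17, and PDC2 was the 1 member with an unadjusted p under 0.05. The paper links thiamine synthesis genes to a hotspot on chromosome 4, with THI3 as the probable regulator. The part of that locus here was not tested. The median difference of 129 cytosolic ribosomal protein genes was -0.16, and that of 64 mitochondrial ribosomal protein genes was 0.08. At that limit, which 4.51% of all probes passed, 3 of the 129 were lower and 3 of the 64 higher, and 0 of either list passed in the other direction.

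The mating genes had differences in 2 opposite directions without a call. All 7 a-type genes had a lower mean in high segregants, with unadjusted p from 0.00588 for BAR1 to 0.0459 for AGA2, an a-agglutinin subunit. MFA2, an a-factor gene, was at 6.61 ± 1.88 in high and 8.13 ± 2.05 in low segregants. 4 of the 6 tested alpha-type genes had a higher mean with an unadjusted p under 0.05, among them MF(ALPHA)1, an alpha-factor gene, at 9.79 ± 2.51 and 7.48 ± 2.30 (unadjusted p = 0.00251). Each adjusted p was 0.999. Of all probes, 4.51% had an unadjusted p under 0.05 in limma. The paper places mating and pheromone genes in a hotspot with MAT as the regulator, so these counts are not separate results. BAR1, above 6.3 in 7 of 25 high and 13 of 19 low segregants, is itself among these genes. Why they differed was not tested.

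Of the 4513 named genes elsewhere the smallest adjusted p was 0.797, and the 5 genes with the smallest p were not called. CCS1, the copper chaperone of superoxide dismutase, had 8.35, 9.80 and 10.40 in high segregants, against 8.21, 8.77 and 9.93 in low segregants. 21 of 25 high segregants were above the median of the low group. The difference was 0.67 ± 0.17 (SE; unadjusted p = 0.000384), beside 1.24 between the parents, with 9.97 in S288C and 8.74 in 59A. ECM34 and YHL042W are neighbours on chromosome 8. ECM34 was below 6.3 in 19 of 25 high and 7 of 19 low segregants, so no difference is given. YHL042W was at 6.49 ± 0.34 in high and 6.97 ± 0.62 in low segregants and was below 6.3 in 7 of the high and 1 of the low. HDA1, a histone deacetylase, was at 6.70 ± 0.21 in high and 6.92 ± 0.20 in low segregants, and ATE1, an arginyl transferase, at 8.33 ± 0.17 and 8.10 ± 0.27. Among the genes of chromosome 4 that follow DBF4 and PDC2 in order of p, HNT2, a hydrolase of dinucleotides, had a difference of 0.51 ± 0.14 and lies 262 places away, and SOK1, at place -35 on the left of ENA2, one of -0.34 ± 0.12. Both had an adjusted p of 0.999.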

How the data were processed

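Deposited values are on the log2 scale. The authors took spot medians with GenePix from one-colour Agilent arrays, 8 to a slide, and quantile normalized them with limma under R 2.13.1. Quantile normalization gives every array 1 distribution and hides a shift common to all transcripts. The authors' methods and the samples differ by 1 array in number. The number of arrays, with 1 per segregant, limits the precision. Each segregant was profiled once, so p-values rest on the spread between segregants. That spread includes the error of each single measurement, which cannot be set apart.

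Of 6245 probes, 5197 carried a gene name, 5144 of them current symbols and 51 older symbols. Names and gene order come from RefSeq (R64), and positions are left out because the build of the array is not named. A probe was tested with values on at least 40 of the 44 segregants. High minus low segregants was fitted in R 4.3.3 with limma 3.58.1 (moderated test, Benjamini-Hochberg over 6224 probes), with a call at an adjusted p under 0.01. Two-sided p-values and SE are those of the fit. The prior had 2.12 degrees of freedom. The fit was tested on simulated data. Parents entered no test. Background was set at 6.3. Columns of samples not used numbered 0.

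Genes named were the pumps, genes within 10 places of ENA2, the 5 elsewhere with the smallest p and, in each list, up to 2 with the smallest p; others were named after their values were seen. The groups, lists and rules were chosen with earlier results of these data known. Alternatives were slide or name number as a block (fixed over 25 segregants, or random), covariates, other filters, a common median, array weights, a robust trend, ENA2 as a continuous value, an adjusted p under 0.05 and leaving out segregants. Python 3.11.15 and pandas 2.3.3 were used.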

Additional observations from a re-analysis of the deposited data

How the results depend on the processing

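At an adjusted p under 0.01 limma called 0 probes under each of the 13 planned settings of the fit and, both added after seeing the data, with BAR1 as a covariate and within name numbers (5458 probes with values on all 25 segregants used). An adjusted p under 0.05 called 2 probes, 2 of them on chromosome 4. Leaving out each segregant in turn, which was added after seeing the data, gave 0 to 2 calls at an adjusted p under 0.01, with 2 without 5a and 1 without 2a, 7c or 19c, all DBF4 or PDC2. At an adjusted p under 0.05 it gave 0 to 2, with 0 without 6d, 10b, 16d, 18c or 22c, each a low segregant, where the adjusted p of both genes was 0.0514 to 0.0560. There slide as a block gave 0, the BAR1 covariate 0, name number as a fixed block 0, leaving out 9c and 13b 0, and array weights, ENA2 as a continuous value and leaving out the 2 segregants nearest the limit on each side 1 each. Over the planned settings the difference of DBF4 was -0.44 to -0.40 (adjusted p 0.0177 to 0.216) and that of PDC2 0.43 to 0.53 (0.0183 to 0.238). Of 241 values for 18 other named genes under 14 settings, 238 kept the sign and 0 passed. A shift of each array to a common median moved the pump differences by less than 0.01. By replicate number, no paired analysis was possible because those numbers only count different strains among the segregants, and the parents entered no test.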
